A study of Homo sapiens with 9 samples.

Results

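Granins and the enzymes that turn prohormones into peptides were followed in H69, an established neuroendocrine line from a small cell lung tumour, under 2 inhibitors of phosphoinositide 3-kinases (PI3K). The genes were the granins CHGA, CHGB, SCG2, SCG3, SCG5 and VGF, the convertases PCSK1 and PCSK2, the carboxypeptidase CPE and the amidating enzyme PAM. They were chosen by name, and each probe set with exactly 1 gene symbol from that list was taken. This gave 11 probe sets of 8 genes, out of 54613 probe sets and 19775 genes on the array. PCSK1 and PCSK2 had no probe set by this rule and were not analysed here. CPE was read by 2 probe sets, PAM by 3 and each other gene by 1.

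The 9 Affymetrix arrays fall into 3 groups of 3, all from the same line, grown in complete RPMI medium and harvested after 24 h. One group received PIK75 at 100 nM, another TGX221, which the labels put at 1 mM, and the control group the solvent DMSO, although its treatment label reads none. PIK75 is known as an inhibitor that prefers the PI3K isoform encoded by PIK3CA, and TGX221 as one that prefers the isoform encoded by PIK3CB. The doses differ, and nothing in the data can test that unit, so the inhibitors were not compared at a matched dose. The labels do not say whether arrays of a group came from separate cultures, so p-values measure the spread between these arrays, which may be technical.

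Granins are acidic proteins that gather peptide hormones and amines in the dense-core granules of endocrine cells and neurons, and several are themselves cut into peptides. In maturing granules convertases cut prohormones after pairs of basic residues, CPE then trims those residues from the new ends, and PAM turns an exposed terminal glycine into an amide, which many peptides need for activity. Neuroendocrine tumours keep this machinery, and CHGA is a standard tissue and blood marker for them.

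Values are log2 RMA values (1 unit is a doubling of signal), and each difference is the treated mean minus the control mean from a limma fit of all probe sets, called at a Benjamini-Hochberg adjusted p below 0.05. All 8 genes were bright, with their brightest probe sets between percentile 82.2 (VGF) and 99.1 (CHGA) of all probe sets. All 11 measured markers of neuroendocrine small cell lung cancer, the labelled cell type, had a mean above 6 in every group. Their summed signal was 43100 to 44000 on PIK75 arrays, 55200 to 56500 on TGX221 arrays and 55200 to 56000 on control arrays. With PIK75, 7 of the 11 were called lower, where 24.7% of all genes and 46.4% of genes with a mean of at least 9 were. SYP was called higher (log2 0.21, adjusted p = 0.0282), and INSM1, STMN2 and EPCAM did not pass. Fewer cells of a type and less RNA per cell cannot be told apart in such values. The summed signal of 9 leukocyte markers was 1640 to 1800 with PIK75, 1450 to 1520 with TGX221 and 1390 to 1510 in control, and that of 4 squamous markers was 515 to 571 with PIK75, 446 to 478 with TGX221 and 453 to 476 in control. Of 8 fibroblast markers, POSTN was the brightest (log2 11.25 with PIK75, 12.13 with TGX221 and 12.10 in control), and the list summed to 4200 to 4240 with PIK75, 5910 to 6190 with TGX221 and 5820 to 6000 in control. POSTN was the 1 marker of this list called lower with PIK75 (log2 -0.86, adjusted p = 7.89e-08). COL1A1, COL1A2, COL3A1, DCN and PDGFRB were the 5 called higher (median of the list 0.26), where 33.3% of all genes were. The part of these markers in the results was not tested.

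With PIK75, 5 of the 8 genes fell and none rose: PAM, SCG5, CHGB, CPE and SCG2, while CHGA, SCG3 and VGF did not pass the test. PAM fell the most, by a log2 difference of -1.17, and its 3 probe sets fell together. With TGX221, 0 of the 8 genes and 0 of the 11 probe sets passed by limma, and 0 of the 11 had an unadjusted p below 0.05. In that comparison 0.269% of all probe sets and 0.324% of all genes were called. Counted by probe sets, 8 of 11 fell with PIK75, where 19.9% of all probe sets were called lower, 30.3% higher and 50.2% in either direction. Counted by genes at their brightest probe set, 62.5% fell, where 24.7% of all genes were called lower, 33.3% higher and 58.0% in either direction. Bright genes fell more often than dim ones, and among the 6636 genes with a mean log2 value of at least 9, the range in which all 8 lie, 46.4% were called lower. The share among the 8 genes is thus nearer to that of bright genes than to that of all genes.

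**Figure D1:**
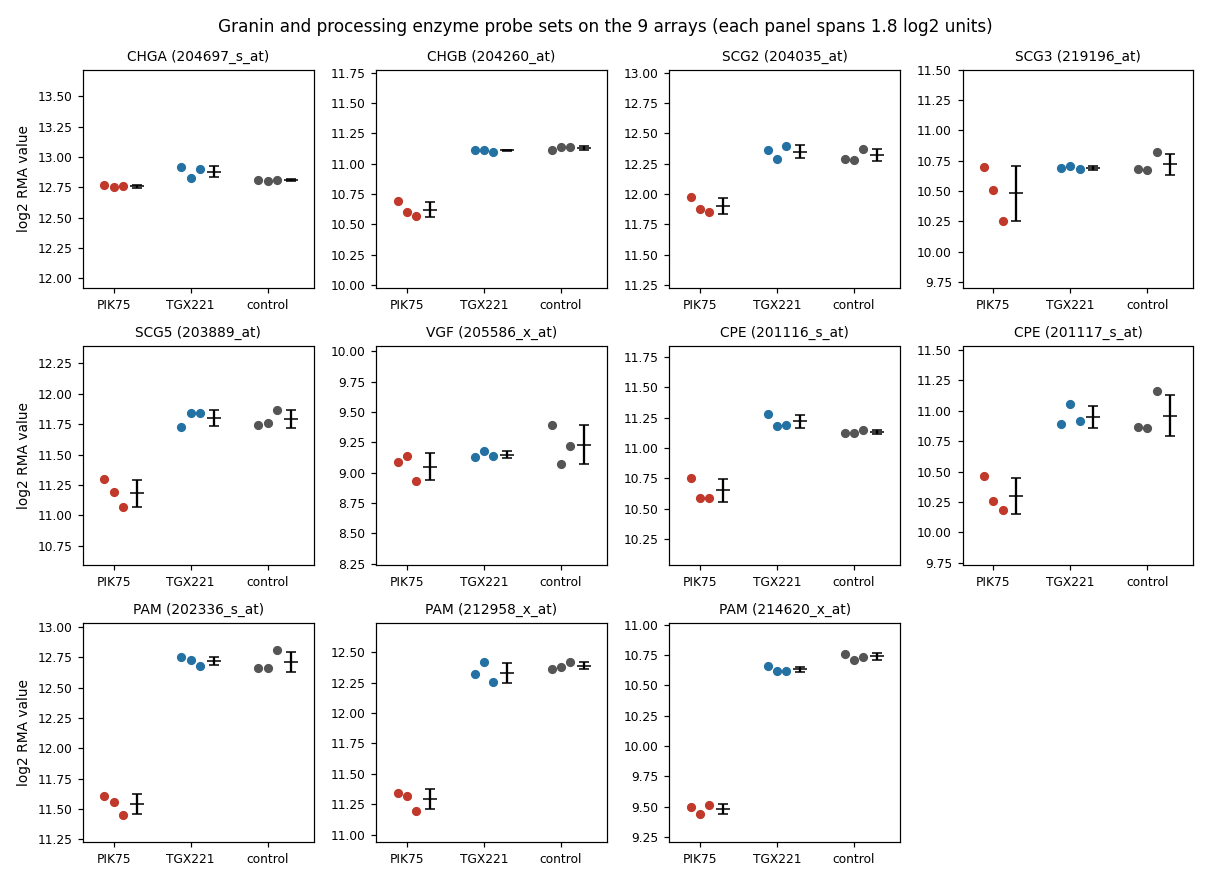
Log2 RMA value (y axis) of each probe set on each array, by group (x axis). Points are arrays, the bar beside them is the mean and SD of 3 arrays, and every panel spans the same 1.8 log2 units. The PIK75 points of the PAM, CPE, CHGB, SCG2 and SCG5 probe sets lie below all other points of their panel, those of PAM by the most.

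Upstream sequences of CHGA, VGF, SCG5 and CPE are shown because they hold the cAMP response element or its core. TGACGTCA is the palindromic element that factors of the CREB family bind, and TGACG is its 5-base core. Each line gives the 150 bases before an annotated start of transcription, from RefSeq on GRCh38.p14, read 5′ to 3′ on the gene's strand, with TGACGTCA and TGACG (on either strand, the core being part of the element) in capitals.
CHGA, chr14:92923000-92923149 (+ strand): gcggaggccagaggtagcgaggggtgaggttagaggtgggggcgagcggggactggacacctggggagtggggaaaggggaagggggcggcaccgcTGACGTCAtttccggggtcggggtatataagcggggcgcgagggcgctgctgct
VGF, chr7:101165570-101165719 (- strand): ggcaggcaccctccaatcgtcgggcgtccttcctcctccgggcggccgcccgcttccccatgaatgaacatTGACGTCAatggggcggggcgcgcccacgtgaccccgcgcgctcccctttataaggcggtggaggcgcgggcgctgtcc
SCG5, chr15:32641560-32641709 (+ strand): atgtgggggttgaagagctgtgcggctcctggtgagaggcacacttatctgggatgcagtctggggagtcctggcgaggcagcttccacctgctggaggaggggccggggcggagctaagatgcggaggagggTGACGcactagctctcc
CPE, chr4:165378858-165379007 (+ strand): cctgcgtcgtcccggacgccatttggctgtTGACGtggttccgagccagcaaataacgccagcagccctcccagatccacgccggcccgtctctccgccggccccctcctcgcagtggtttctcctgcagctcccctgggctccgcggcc

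Of the 8 measured genes, 6 had an entry in the table of promoters (250 bases before to 50 after a start), and CHGB and SCG2 had none. TGACGTCA stood 54 to 47 bases before the start in CHGA and 79 to 72 bases before it in VGF. It was found in 1.85% of all 35116 promoters of that length. The core alone stood in SCG5, SCG3 and CPE, of which CPE held it at 2 places, and 24.6% of all promoters hold the core on either strand. Of the 3 listed promoters of PAM, 1 held the core, after the start, and none held the full element. The E-box CAGCTG, which 17.9% of promoters hold, occurred 2 times in SCG3 and in 2 of the 3 promoters of PAM. TATAAA, found on either strand in 11.5% of promoters, occurred in VGF alone among these genes. Both genes with the full element, CHGA and VGF, were among the 3 that did not pass with PIK75. CHGB and SCG2, both called lower, could not be searched, so this sets apart no group of genes. A link between these motifs and the response to PIK75 was not tested. These matches are descriptions of letters in these windows.

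CHGA, the chromogranin for which the family is named, lies on chromosome 14 (92922664 to 92935285, GRCh38.p14). Its probe set 204697_s_at read 12.77, 12.75 and 12.76 on the PIK75 arrays, 12.92, 12.83 and 12.90 on the TGX221 arrays and 12.81, 12.80 and 12.81 on the control arrays. The 3 groups do not overlap, TGX221 being the highest and PIK75 the lowest, but they are very close. The log2 difference was -0.047 with PIK75 (95% interval -0.15 to 0.057, adjusted p = 0.422) and 0.077 with TGX221 (-0.028 to 0.18, adjusted p = 0.464). Groups that do not overlap are common here: they were found in 57.5% of all probe sets for PIK75 and 21.6% for TGX221.

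CHGB (chromosome 20, 5911510 to 5925353) encodes chromogranin B, the second classical granin. Probe set 204260_at read 10.69, 10.60 and 10.57 with PIK75, 11.11, 11.11 and 11.10 with TGX221 and 11.11, 11.14 and 11.14 in control. Every PIK75 array lay below every other array, and the TGX221 and control ranges overlapped. The signal was 70.2% of control with PIK75 (log2 -0.51, SE 0.0498, adjusted p = 5.95e-06) and 98.6% of control with TGX221 (log2 -0.02, adjusted p = 0.895).

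SCG2 (chromosome 2, 223596940 to 223602361) encodes secretogranin II, the precursor of secretoneurin. Probe set 204035_at read 11.98, 11.88 and 11.85 with PIK75, 12.36, 12.29 and 12.40 with TGX221 and 12.29, 12.28 and 12.37 in control. The PIK75 arrays were again the 3 lowest, and the TGX221 and control ranges overlapped. SCG2 was 1.33-fold lower with PIK75 than in control (log2 -0.41, SE 0.0559, adjusted p = 9.5e-05).

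SCG5 (chromosome 15, 32641710 to 32697092) encodes 7B2, the chaperone that PCSK2 needs for its maturation and whose tail inhibits the same enzyme. It fell more than any other granin measured. Probe set 203889_at read 11.30, 11.19 and 11.07 with PIK75, 11.73, 11.84 and 11.84 with TGX221 and 11.74, 11.76 and 11.87 in control. The PIK75 arrays lay below all others by at least 0.4 log2 units. SCG5 was 1.52-fold lower with PIK75 (log2 -0.60, SE 0.0679, adjusted p = 2.01e-05), and its TGX221 difference was 0.015 (95% interval -0.13 to 0.16).

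SCG3 and VGF were less clear. SCG3 (chromosome 15, 51681503 to 51721026) encodes secretogranin III, which binds CHGA and the cholesterol-rich granule membrane. Its probe set 219196_at read 10.70, 10.51 and 10.25 on PIK75 arrays 1, 3 and 5, 10.69, 10.71 and 10.68 with TGX221 and 10.68, 10.67 and 10.82 in control. PIK75 array 1 lay within the control range and array 5 was 0.4 units below it. The difference of -0.23 (SE 0.0931) had an adjusted p of 0.0541 over all probe sets and of 0.0428 when only the brightest probe set of each gene was fitted. Without PIK75 replicate 1 it was -0.34 (adjusted p = 0.00578), and over all alternatives its adjusted p ran from 2.54e-05 to 0.665. PIK75 array 5 also had the largest gap between the 3′ and 5′ probe sets of actin, a sign of RNA or labelling quality, at 1.13, against 0.47 and 0.54 on the other PIK75 arrays, 0.26 to 0.41 on TGX221 arrays and 0.24 to 0.44 on control arrays. With that gap as a covariate the SCG3 difference was -0.059 (adjusted p = 0.665). All 3 PIK75 arrays had a larger gap than any other array, so this covariate and the treatment cannot be told apart.

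VGF (chromosome 7, 101162509 to 101169952) encodes a growth factor-induced granin that is the source of many peptides. Probe set 205586_x_at, a type that can match other transcripts as well, read 9.09, 9.14 and 8.93 with PIK75, 9.13, 9.18 and 9.14 with TGX221 and 9.39, 9.07 and 9.22 in control. All groups overlapped, and the control arrays spread the most. The difference was -0.17 with PIK75 (95% interval -0.35 to 0.0029, adjusted p = 0.0917) and -0.075 with TGX221 (adjusted p = 0.701). Without control replicate 3, the lowest control, the PIK75 difference was -0.25 (adjusted p = 0.0233), within a range of 4.33e-05 to 0.612 over the alternatives.

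CPE (chromosome 4, 165379008 to 165498547) encodes carboxypeptidase E, which removes the basic residues left by the convertases. Its brightest probe set 201116_s_at read 10.75, 10.59 and 10.59 with PIK75, 11.28, 11.18 and 11.19 with TGX221 and 11.12, 11.12 and 11.15 in control. The second, 201117_s_at, read 10.46, 10.26 and 10.18 with PIK75, 10.89, 11.06 and 10.92 with TGX221 and 10.87, 10.86 and 11.16 in control. On both, the 3 PIK75 arrays were the lowest. On the brightest, the TGX221 arrays were all just above the controls, but the difference of 0.085 did not pass (adjusted p = 0.511). With PIK75 the probe sets gave log2 -0.49 (SE 0.0579, adjusted p = 3.18e-05) and -0.66 (SE 0.0934, adjusted p = 0.000126), and the intervals of -0.61 to -0.36 and -0.87 to -0.46 overlap.

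PAM (chromosome 5, 102754783 to 103031105) encodes the peptidylglycine alpha-amidating monooxygenase, a copper enzyme that uses ascorbate. Its brightest probe set 202336_s_at read 11.61, 11.56 and 11.45 with PIK75, 12.75, 12.73 and 12.68 with TGX221 and 12.66, 12.66 and 12.81 in control. The probe set 212958_x_at read 11.34, 11.32 and 11.19 with PIK75, 12.32, 12.42 and 12.26 with TGX221 and 12.36, 12.38 and 12.42 in control. The probe set 214620_x_at read 9.50, 9.44 and 9.51 with PIK75, 10.66, 10.62 and 10.62 with TGX221 and 10.76, 10.71 and 10.73 in control.

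On all 3 PAM probe sets the highest PIK75 array was about 1 unit below the lowest control array. PAM signal was 44.4%, 46.7% and 42.0% of control with PIK75, that is log2 -1.17 (SE 0.0603, adjusted p = 3.74e-08), -1.10 (SE 0.0603, adjusted p = 5.78e-08) and -1.25 (SE 0.0484, adjusted p = 6.58e-09). By its brightest probe set PAM ranked 421 from the lowest of 19775 genes, and 3.57% of genes were called lower by at least 2-fold. SCG5 and PAM passed with at least 1.5-fold, as did 10.4% of all genes in that direction. With TGX221 the same probe sets gave 0.01, -0.054 and -0.10, with adjusted p of 0.96, 0.715 and 0.317. On 214620_x_at the TGX221 arrays all lay below the controls.

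**Figure D2:**
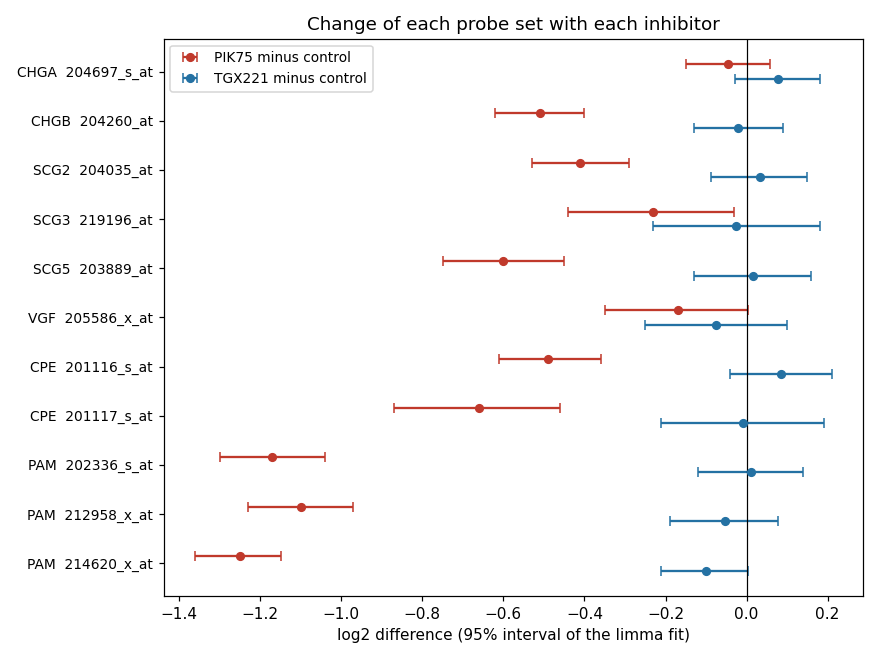
Log2 difference from control (x axis) of each probe set (y axis) with PIK75 (red, upper point) and with TGX221 (blue, lower point), with 95% intervals from limma. All 3 PAM intervals for PIK75 lie below -0.9, and the TGX221 interval of every probe set includes 0.

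The difference between the inhibitors was itself tested, with the reservation on dose above. PIK75 arrays were lower than TGX221 arrays for the same 5 genes, on 8 of the 11 probe sets, where 37.2% of all probe sets were called and 16.9% were called lower. By genes the background was 44.6% called and 21.7% called lower, or 8.44% lower by at least 1.5-fold. For PAM the difference PIK75 minus TGX221 was log2 -1.18 (SE 0.0603, adjusted p = 4.68e-08), for SCG5 -0.62 (adjusted p = 1.97e-05), for CPE -0.57 (adjusted p = 1.01e-05), for CHGB -0.49 (adjusted p = 1.01e-05) and for SCG2 -0.44 (adjusted p = 5.98e-05). This comparison and that with control share the PIK75 arrays. CHGA was lower by -0.12 (95% interval -0.23 to -0.019, adjusted p = 0.0608), SCG3 differed by -0.21 (adjusted p = 0.1) and VGF by -0.098 (adjusted p = 0.363), none of them past the threshold. CHGA passed in 6 of 20 alternatives, among them arrays centred on their medians (adjusted p = 0.0197), and its adjusted p ran from 8.55e-05 to 0.98 over the alternatives.

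Because the scale between arrays is uncertain, each gene was also set against CHGA within the same array, where any shift of a whole array cancels. The gap between CHGB and CHGA averaged -2.14 ± 0.053 on PIK75 arrays and -1.68 ± 0.02 on control arrays (SD, n = 3 each), so that it was wider by 0.46 in size with PIK75. The gap between PAM and CHGA averaged -1.22 ± 0.0748 on PIK75 arrays and -0.10 ± 0.0793 on control arrays, a change of -1.12. The 5 genes that fell all had a lower gap on every PIK75 array than on any control array, and for SCG3 and VGF the gaps overlapped. Over all genes set against CHGA in the same way, 23.7% had a lower gap without overlap and 74.9% did not overlap in either direction. With TGX221, of the 7 gaps that of CHGB alone did not overlap, with a change of -0.096, against 30.0% of all genes lower and 34.1% in either direction. The exact permutation p of each of these non-overlapping gaps was 0.1, the smallest that 3 arrays against 3 allow, or 0.233 adjusted over the 14 gaps tested. Such gaps show unequal change and do not tell which of 2 genes moved. CHGA itself differed by only -0.047 with PIK75, so the PIK75 gaps nearly repeat the differences from control given above. They are from the same values and are not separate evidence that these genes fell.

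**Figure D3:**
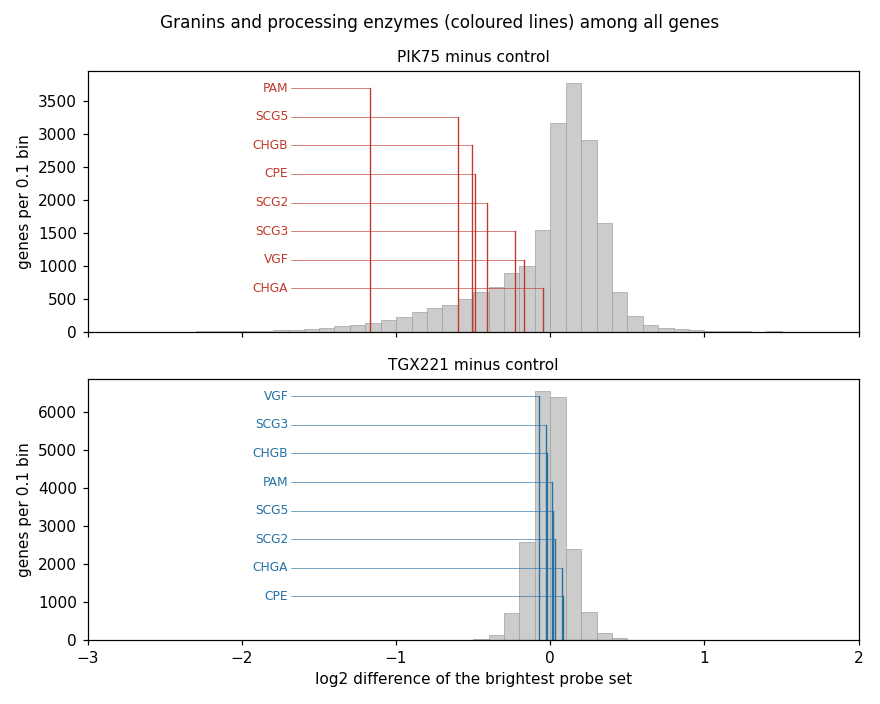
Number of genes (y axis) by log2 difference of their brightest probe set (x axis, bins of 0.1), for PIK75 (above) and TGX221 (below), with the 8 genes as coloured lines. With PIK75 the peak lies in the bin around 0.15 and all 8 genes lie left of it, PAM the farthest at -1.17, and with TGX221 all 8 lie within 0.1 of 0.

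How far each gene fell depends on the scale. The hybridization spikes, added after labelling, read 0.35 log2 units higher with PIK75 than in control, and the poly-A spikes, added to the RNA, 0.081 units higher, while the median of all differences was 0.084. Centred on the hybridization spikes, all 11 probe sets passed lower with PIK75, CHGA by -0.40 (adjusted p = 8.83e-05), where the median of all genes was -0.26 and 13049 genes were lower and 382 higher, against 4894 and 6581 as deposited. Centred on the poly-A spikes, 10 of 11 passed lower and 4973 genes were lower and 2169 higher. The 5 genes that fell as deposited were lower and past the threshold under every scaling tried, PAM by -1.04 to -1.52. CHGA was the one gene of the 8 that changed sign, to 0.082 with cyclic loess (adjusted p = 0.229).

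**Figure D4:**
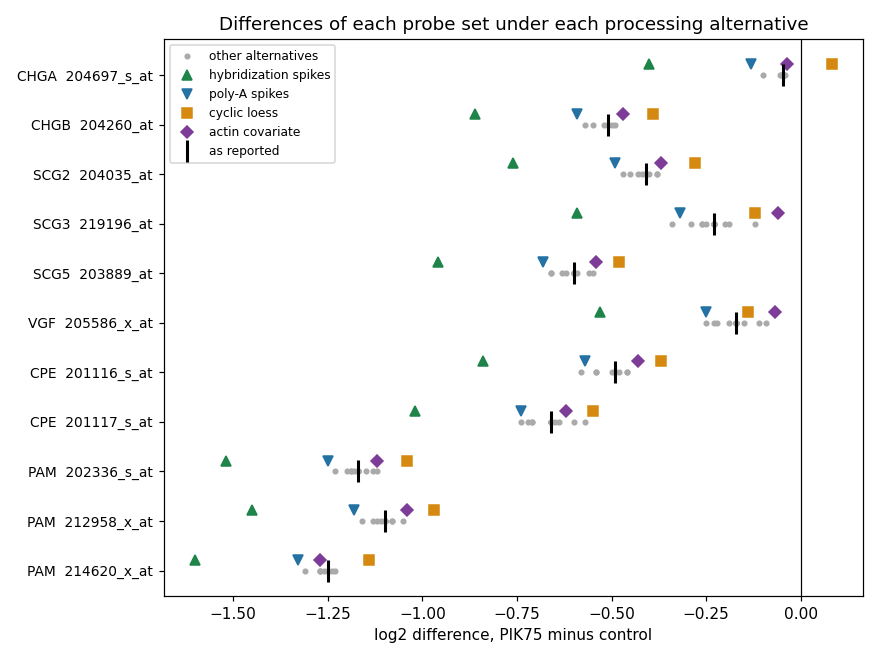
Log2 difference, PIK75 minus control (x axis), of each probe set (y axis) as reported (black bar) and under each alternative. Centring on hybridization spikes (green) moves every probe set down by 0.35 and cyclic loess (orange) moves every probe set up, CHGA past 0 to 0.082.

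The genes whose values followed PAM most closely over the 9 arrays, among 17089 genes with a mean of at least 6, were SCFD1, a factor of transport from the endoplasmic reticulum to the Golgi (r = 0.999), the NEDD8-activating subunit UBA3 (r = 0.998) and the fucosidase FUCA2 (r = 0.998). They differed by log2 -1.04, -1.24 and -1.33 with PIK75 and by 0.037, -0.022 and 0.026 with TGX221. CHGA was followed most closely by the ubiquitin-conjugating enzyme UBE2T (r = 0.977), the keratin KRT7 (r = 0.968) and the complex I subunit NDUFS6 (r = 0.965), which differed by -0.13, -0.16 and -0.095 with PIK75 and by 0.16, 0.15 and 0.15 with TGX221. These correlations are descriptions over 9 arrays in 3 groups.

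How many other enzymes of the pathway were called in each direction depended on the scale. The same held over all genes, where 24.7% were called lower and 33.3% higher as deposited. With hybridization spikes 13049 of 19775 genes were lower and 382 higher. Of 6 other proprotein convertases measured, 1 fell with PIK75 and 2 rose (median 0.16, against 0.088 for all genes). With hybridization spikes 3 were lower and none higher (median -0.19, against -0.26 for all genes), and 6 of 6 were lower against TGX221 on that scale. MBTPS1, the site-1 protease of the Golgi, fell by 0.54 on the log2 scale (adjusted p = 4.54e-06). FURIN, the convertase of the constitutive route, rose (log2 0.26, adjusted p = 0.0129) as did PCSK6 (log2 0.26, adjusted p = 0.00677), but with hybridization spikes both values were below 0 (-0.093 and -0.095) and did not pass. PCSK4 did not pass (log2 0.14, adjusted p = 0.0681).

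Among 12 enzymes that trim or modify peptide ends, 3 fell and 3 rose (median 0.031), whereas 9 were lower and none higher with hybridization spikes (median -0.32). These counts stand beside 24.7% lower and 33.3% higher of all genes as deposited, and 13049 of 19775 lower with hybridization spikes. QPCT, which closes amino-terminal glutamine into pyroglutamate, was 2.35-fold lower with PIK75 (mean 9.32 with PIK75 and 10.56 in control, log2 -1.23, SE 0.0761, adjusted p = 1.42e-07). CPD, the carboxypeptidase of the trans-Golgi network that acts on the same basic residues as CPE, was 1.89-fold lower (log2 -0.92, adjusted p = 3.54e-07), with 3 of its other probe sets lower and 1 higher. NLN, a peptidase that cleaves neurotensin, rose by its brightest probe set (log2 0.38), while 4 other probe sets of NLN fell. The angiotensin-converting enzyme ACE rose (log2 0.31, adjusted p = 0.00244), but read -0.041 with hybridization spikes. With TGX221 none of these genes passed by limma at its brightest probe set, the nearest being QPCTL (log2 0.25, adjusted p = 0.0906), and 1 other probe set of NLN was called lower.

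PAM takes its copper in the secretory pathway. Of 8 genes of copper supply and of the CYB561 family of ascorbate-linked electron carriers, 3 fell and 3 rose (median -0.093). On the scale of the hybridization spikes 5 were lower and none higher (median -0.45). The shares of all genes were 24.7% lower and 33.3% higher as deposited, and 13049 of 19775 were lower with hybridization spikes. The copper importer SLC31A1 rose (log2 0.47, SE 0.0612, adjusted p = 6.78e-05; 0.12 and not past the threshold with hybridization spikes), while ATOX1, which carries copper to the pumps of the Golgi, fell (log2 -0.35, adjusted p = 0.000464). CYB561, the granule membrane protein that renews ascorbate for PAM, rose (log2 0.28, adjusted p = 0.00374), with 4 other probe sets also higher, but it read -0.071 with hybridization spikes. CYB561D2 fell (log2 -0.25, adjusted p = 0.00454). The copper pump ATP7A did not pass (log2 -0.12, adjusted p = 0.273).

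Prohormones and neuropeptide precursors are the substrates of these enzymes. With PIK75, 5 of 42 were called lower and 25 higher (median 0.21), and 19 were lower and 1 higher with hybridization spikes. Over all genes, 24.7% were called lower and 33.3% higher as deposited, and 13049 of 19775 were lower with hybridization spikes. The 5 called lower were NTS, PENK, GRP (log2 -0.38), NPW (log2 -0.38) and NPPA (log2 -0.23), all with a mean of at least 9. NMU, also in that range, did not pass (log2 -0.14, adjusted p = 0.0849). All 25 called higher had a mean below 9. NTS, which encodes neurotensin and neuromedin N, was 2.51-fold lower (log2 -1.33, adjusted p = 1.87e-07), and PENK, the enkephalin precursor, 1.79-fold lower (log2 -0.84, adjusted p = 2.69e-06). UCN, the urocortin precursor, rose on every scaling tried (mean 8.16 with PIK75 and 7.40 in control, log2 0.75, adjusted p = 1.03e-06). NPFF rose as deposited (log2 0.39), but not past the threshold with hybridization spikes (0.033). With TGX221 none of the 42 passed by limma, UCN (log2 0.27, adjusted p = 0.0715) and GHRL (log2 0.31, adjusted p = 0.101) being the nearest. Centred on poly-A spikes, 2 of the 42 passed higher with TGX221.

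As deposited, proteins that build or release the granule were called in both directions, and with hybridization spikes mostly lower. Genes at large did the same. As deposited, 24.7% of all genes were called lower and 33.3% higher, and 46.4% of genes with a mean of at least 9 were called lower. With hybridization spikes 13049 of 19775 genes were lower and 382 higher. Of 6 further genes listed beside the granins, not all of them for granule proteins, SPOCK1 fell (log2 -0.67, adjusted p = 1.53e-05). PCSK1N, which encodes the PCSK1 inhibitor proSAAS, rose slightly (log2 0.20, adjusted p = 0.0362), but read -0.15 with hybridization spikes. SERPINA3 rose (log2 0.27, adjusted p = 0.0238; -0.081 with hybridization spikes). Among 27 genes of granule membrane and biogenesis, 12 fell and 7 rose (median -0.028), and 20 were lower and 1 higher with hybridization spikes (median -0.38). SORL1, a sorting receptor, was the lowest of them (mean 7.87 with PIK75 and 9.98 in control, log2 -2.11), with 1 other probe set lower and 1 higher. TBC1D5 (log2 -1.35), RAB2B (log2 -0.94) and SLC18A1, the vesicular monoamine transporter of endocrine cells (log2 -0.81), also fell. RAB26 rose (log2 0.61, adjusted p = 4.12e-05) and was the 1 gene still higher with hybridization spikes (log2 0.26, adjusted p = 0.0155).

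Among 28 genes of regulated exocytosis, 13 fell and 8 rose (median -0.068), and 21 were lower and 1 higher with hybridization spikes (median -0.42). By comparison, 24.7% of all genes and 46.4% of genes with a mean of at least 9 were called lower as deposited, and 13049 of 19775 were lower with hybridization spikes. SNAP25, a SNARE protein of vesicle fusion, had the largest fall and the smallest p of the list (mean 9.93 with PIK75 and 11.43 in control, log2 -1.50, adjusted p = 3.67e-09), with 2 other probe sets also lower. CADPS, which primes dense-core granules for release, was 2.05-fold lower (log2 -1.03, adjusted p = 1.91e-08), with 1 other probe set lower and 1 higher. RAB3C, a small GTPase of secretory vesicles, fell (log2 -1.32) with 1 other probe set lower and 1 higher, and so did the priming factor UNC13B (log2 -0.71). SYTL2 rose (log2 0.60, adjusted p = 4.95e-06) and was the 1 gene of the list still higher with hybridization spikes (log2 0.25, adjusted p = 0.00473). With TGX221 none of the genes in these lists passed by limma at its brightest probe set, and 1 other probe set of VTI1A, a granule list member, was called higher. With poly-A spikes 1 exocytosis gene passed higher with TGX221, and with hybridization spikes 2 granule genes and 1 exocytosis gene passed lower. STX6, a syntaxin of the trans-Golgi network and immature granules, was nearest in the granule list (log2 -0.28, adjusted p = 0.062), and UNC13D in the exocytosis list (log2 0.29, adjusted p = 0.0719).

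**Figure D5:**
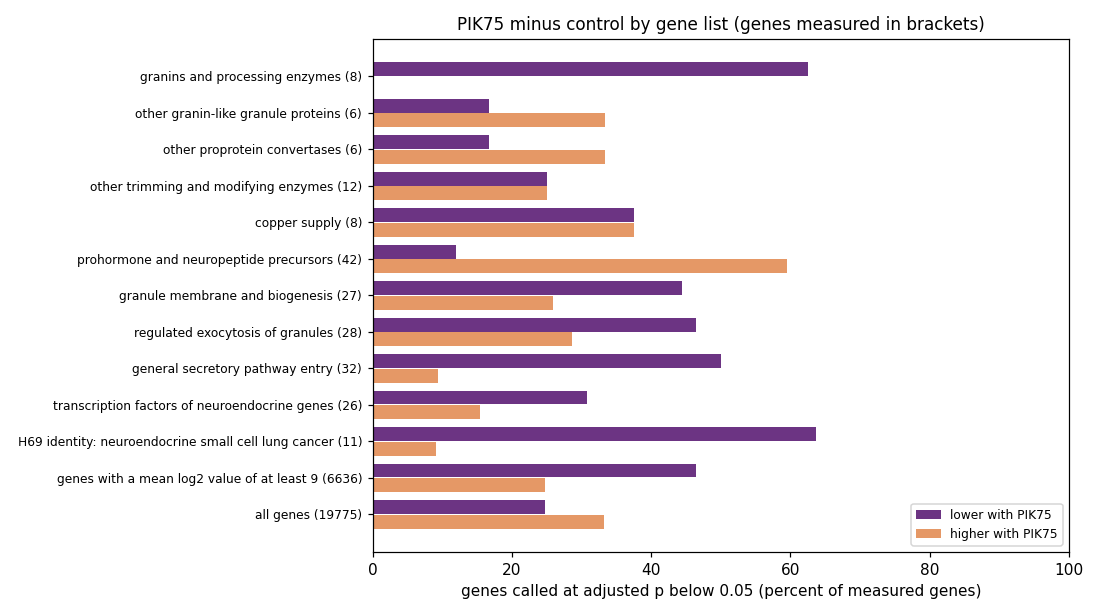
Percent of measured genes (x axis) called lower (purple) or higher (orange) with PIK75 in each gene list (y axis, number of genes in brackets), with bright genes and all genes at the bottom. The 8 granin and processing enzyme genes have 62.5% lower and none higher, against 46.4% lower among bright genes and 24.7% among all genes.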

How the data were processed

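The labels state that RNA of H69 cells was labelled with the One-Cycle kit from 2 ug of total RNA and hybridised to 1 array per sample. The deposited values are on the log2 scale, and RMA is the method named for them per the submitters' processing notes, without a version. RMA gives all arrays nearly 1 distribution, so that a shift shared by most genes is lost. They were used as deposited, with 0 columns left unmapped. Depth has no meaning here, and 3 arrays per group limit the precision.

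Of 54675 probe sets, 62 Affymetrix controls were left out. A platform annotation table gives 41091 probe sets exactly 1 symbol, 1801 several and 11721 none, and symbols were updated through gene identifiers of the RefSeq table (GRCh38.p14). All 54613 probe sets were fitted with limma 3.58.1 (lmFit and eBayes, R 4.3.3) with 3 group means over 9 arrays and no covariate (6 residual degrees of freedom, prior 5.632), and p-values were adjusted over all of them by Benjamini and Hochberg. A gene stands by its brightest probe set. The fit was tested on simulated data with known changes. Gaps between genes were tested with exact permutation tests, two-sided (scipy 1.17.1).

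The genes followed and the other gene lists were chosen with earlier results of these data known, and so were the alternatives. Of 244 list entries 227 were matched, and the rest are not analysed here. Named are all probe sets of the genes followed, and of each list up to 4 genes with the smallest p with PIK75 and up to 2 with TGX221, plus FURIN, PCSK1N and REST by role. Not every gene the rule admits is named. VTI1A, GRP, NPW, NPPA, NMU, RAB26, SYTL2, SEC11A, SRP68, SEC13 and the single cell type markers were named after their values were seen. ATP7A was named with PIK75 because it ranks first with TGX221 in its list. CREB1 and CREM, and the limit of 9 for bright genes, were chosen after values were seen.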

Additional observations from a re-analysis of the deposited data

How the results depend on the processing

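The 5 genes called lower with PIK75 stayed lower and past the threshold under every scaling, fit and left-out array tried, and TGX221 gave 0 called probe sets under each. At a minimum of 1.5-fold, 5 probe sets and 2 genes (PAM and SCG5) were called both for PIK75 minus control and for PIK75 minus TGX221. The genes called rose to 8 with hybridization spikes in both comparisons, and to 8 with poly-A spikes for PIK75 minus TGX221. The spikes shift all values of an array, which moves every probe set alike. Leaving out 1 array at a time gave 8 to 9 probe sets and 5 to 6 genes with PIK75 against control, and the same ranges against TGX221. The replicate block changed no call: 8 probe sets and 5 genes were called for PIK75 minus control, 8 and 5 for PIK75 minus TGX221 and 0 and 0 for TGX221 minus control. The numbers were not taken to pair the arrays, since same-numbered PIK75 and control arrays did not deviate together (correlations -0.073, 0.093 and -0.00088). SCG3 passed lower with PIK75 in 7 alternatives, VGF in 4 and CHGA in 1, of 20 each. With the actin covariate VGF was at -0.069 (adjusted p = 0.612), and the cause was not tested.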

Other observations

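General entry into the secretory pathway (translocation, signal peptide cleavage and vesicle coats) had 16 of 32 genes lower and 3 higher with PIK75, with a median log2 difference of -0.17, 14 lower and 11 higher with cyclic loess, and 28 lower and none higher with hybridization spikes (median -0.53). All of them except SEC61A2 and SEC24D had a mean of at least 9, and 46.4% of all genes in that range were called lower as deposited. Over all 19775 genes 24.7% were called lower as deposited, and 13049 were lower with hybridization spikes. SPCS3 (log2 -1.30) and SPCS2 (log2 -0.73), subunits of the signal peptidase, fell, as did SRP72 of the signal recognition particle (log2 -0.68) and the coat protein SEC31A (log2 -0.63). The 3 called higher were SEC11A of the same peptidase (log2 0.23), SRP68 of the same particle (log2 0.36) and SEC13 (log2 0.42). These complexes thus did not move as a whole. With TGX221 none of the 32 passed by limma, SEC24B being the nearest (log2 -0.20, adjusted p = 0.232).

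Among 26 transcription factors of neuroendocrine genes, 8 fell and 4 rose with PIK75 (median -0.085), and 21 were lower and 1 higher with hybridization spikes (median -0.44). Over all genes 24.7% were called lower and 33.3% higher as deposited, and 13049 of 19775 were lower with hybridization spikes. SOX11 was 2.85-fold lower (mean 8.03 with PIK75 and 9.54 in control, adjusted p = 3.23e-09), and ST18 was 2.72-fold lower by its brightest probe set, with 1 other probe set of ST18 higher. MYT1L (log2 -0.74) and NKX2-2 (log2 -0.79) also fell. REST, the repressor of neuronal genes, was slightly higher (log2 0.18, adjusted p = 0.0375), with a value of -0.17 with hybridization spikes and overlapping groups. Of the factors that bind the cAMP response element, CREB1 fell (log2 -0.57, adjusted p = 9.02e-05) and CREM did not pass (log2 -0.005, adjusted p = 0.948).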
